A study of Rattus norvegicus with 16 samples.

Results

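The osteoclast resorption machinery is described here through 10 genes: Ctsk, Acp5, Atp6v0d2, Tcirg1, Clcn7, Ostm1, Calcr, Dcstamp, Nfatc1 and Car2. The genes were chosen by name, with earlier results of these data known, and each was followed over all 16 arrays of the study in the array row that names it. Only rows naming a single gene were used. Such a row was found for 7 of the 10, with 1 row each, among 17245 genes tested. Acp5, which encodes tartrate-resistant acid phosphatase, Dcstamp, a fusion protein of osteoclast precursors, and Nfatc1, a transcription factor of osteoclast formation, had no row naming them alone and were not analysed here. RNA came from cells adhering to commercially pure titanium implants that had been placed in the tibiae of male Sprague Dawley rats, with no further treatment named for the animals beyond anaesthesia and analgesia. The AT-I implants carried nanoscale features and the AT-II implants were microrough without them. Each of the 8 rats carried AT-I in one tibia and AT-II in the other, with 2 implants per tibia supplying 1 RNA sample, and 4 rats were used at day 2 and 4 at day 4 after placement. Each surface and day thus made a group, with 4 arrays in each of the 4 groups.

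Osteoclasts are multinucleated cells of the macrophage lineage that dissolve bone. A vacuolar proton pump at the ruffled border acidifies the sealed space between cell and bone, with protons supplied by carbonic anhydrase II and charge balanced by a chloride-proton exchanger, and the exposed collagen is then cut by the protease cathepsin K. Precursors reach this state through fusion driven by RANKL and M-CSF, and the mature cell carries the calcitonin receptor. All values below are log2 expression, so a difference of 1 is a change of 2 fold, and a gene is called changed where the adjusted p of limma's moderated test (Benjamini-Hochberg over all 17245 genes) was under 0.05. Levels are compared within a gene and not between genes, since array rows differ in brightness.

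Several facts of the arrays bear on the values. Replicates 2 and 3 of AT-II at day 2 differed by less than any other of the 120 pairs of arrays, with an SD of the difference of 0.0850 in the bright, variable rows against at least 0.291 elsewhere, so they were averaged and counted as 1 sample, leaving 3 samples in that group and 4 in each of the others. The interquartile range of an array over genes was 2.48 to 2.98 in AT-I at day 2, 3.05 to 3.41 in AT-II at day 2, 2.60 to 3.41 in AT-I at day 4 and 3.10 to 3.42 in AT-II at day 4, so the AT-I day 2 arrays all had a narrower spread than those of AT-II. With this spread as a covariate, neither Ctsk nor Atp6v0d2 passed, as given beside them. The spread differs between groups, so the covariate can take up part of a difference between groups, and the 2 cannot be told apart. One AT-I sample at day 2, replicate 1, stood apart from the other samples of its group in several genes, among them Ctsk. No label says which rat a replicate number stands for, so p-values measure the spread between these samples and ignore that a rat carried both surfaces. In RNA from a mixture of adherent cells, fewer cells of a type and less RNA per cell cannot be told apart.

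Promoter windows are shown for 3 members: Ctsk, the protease called higher at day 4 on AT-I, and Tcirg1 and Clcn7, the pump subunit and the exchanger that passed no test. Each window runs from 250 bases before to 50 bases after a RefSeq start on GRCr8, 5′ to 3′ in the direction of the gene, with capitals marking matches to the motifs searched. The Ctsk window is chr2:185747298-185747597 on the plus strand, the Tcirg1 window is chr1:210567886-210568185 on the minus strand and the Clcn7 window is chr10:14656011-14656310 on the plus strand.
Ctsk: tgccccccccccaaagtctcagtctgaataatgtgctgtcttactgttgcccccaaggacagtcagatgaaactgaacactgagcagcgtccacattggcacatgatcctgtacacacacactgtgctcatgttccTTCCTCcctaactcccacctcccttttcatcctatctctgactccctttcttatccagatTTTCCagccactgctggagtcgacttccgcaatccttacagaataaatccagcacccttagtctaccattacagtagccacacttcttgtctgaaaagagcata
Tcirg1: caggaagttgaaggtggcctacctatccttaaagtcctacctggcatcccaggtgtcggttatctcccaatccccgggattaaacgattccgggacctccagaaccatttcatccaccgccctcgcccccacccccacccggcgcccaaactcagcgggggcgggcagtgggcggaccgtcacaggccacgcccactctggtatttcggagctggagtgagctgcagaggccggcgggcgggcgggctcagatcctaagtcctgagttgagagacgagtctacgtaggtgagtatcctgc
Clcn7: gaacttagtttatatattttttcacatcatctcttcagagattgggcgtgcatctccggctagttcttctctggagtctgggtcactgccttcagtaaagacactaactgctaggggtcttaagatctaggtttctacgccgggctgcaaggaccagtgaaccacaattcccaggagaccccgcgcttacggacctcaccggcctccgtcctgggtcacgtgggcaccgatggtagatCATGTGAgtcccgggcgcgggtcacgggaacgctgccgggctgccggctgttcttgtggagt
The motifs, searched on both strands, were the MITF M-box CATGTGA, present in 3.89% of 33469 promoter windows of the same length, AP-1 TGANTCA in 7.33%, the NFAT core GGAAA in 62.7% and the PU.1 core GAGGAA in 27.6%. The Ctsk window held the NFAT core at -54 and the PU.1 core at -114, both on the strand opposite to the gene, so they read in reverse complement above. The Clcn7 window held the M-box at -12, and the Tcirg1 window held none of the 4 motifs. GC content was 48.3% in the Ctsk window, 55.7% in the Clcn7 window and 62.0% in the Tcirg1 window, against a median of 51.7% over all windows. A match of letters is a description, and 6 of the 10 members had a window in the RefSeq table. Atp6v0d2, Car2, Dcstamp and Nfatc1 had none.

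The comparison of day 4 with day 2 asked how the adherent cells changed as healing went on. On AT-I, 2 of the 7 measured members rose, Ctsk 3.97 fold and Atp6v0d2 4.53 fold, against 8.84% of all genes called higher, and 0 fell, against 2.66% called lower (11.5% in all). With each array centred on its median 5.75% of all genes were called higher and 8.72% lower, and both members kept their calls. Leaving out 1 sample moved the share of genes called from 6.71%, without AT-I day 4 replicate 4, to 17.1%, without AT-I day 4 replicate 3. On AT-II the corresponding values were 3.73 fold and 3.68 fold but neither passed, and 0 of 7 members were called in a comparison in which 3.33% of all genes were (3.13% higher and 0.203% lower). At day 2, that share fell to 1.29% when AT-II replicate 1 was left out and to 1.70% when the averaged sample was. At day 4, it fell to 1.81% on leaving out AT-II replicate 1 and to 2.05% on leaving out replicate 3. The other 5 members passed in neither comparison. The median difference over the 7 members was 0.27 on AT-I and 0.32 on AT-II, against -0.05 over all genes on each surface.

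Ctsk encodes cathepsin K, the collagen-cutting protease of the resorption space. Its level on AT-I at day 2 was 7.54, 9.94, 10.37 and 10.07 in replicates 1 to 4. On AT-II at day 2 it was 8.78 in replicate 1, 10.10 in the averaged sample and 10.34 in replicate 4. At day 4 it was 11.34, 11.19, 11.28 and 12.06 on AT-I. The AT-II samples at day 4 had 11.55, 11.91, 11.49 and 11.62. On each surface every day 4 sample lay above every day 2 sample of that surface, a separation found for 11.3% of all genes on AT-I and 8.74% on AT-II. The samples numbered 1 were the lowest of their day 2 groups on both surfaces.
At day 2 the AT-I mean was 9.48 ± 1.31 (SD, n = 4) and the AT-II mean 9.74 ± 0.84 (SD, n = 3). At day 4 the AT-I mean was 11.47 ± 0.40 (SD, n = 4) and the AT-II mean 11.64 ± 0.19 (SD, n = 4), and this is also the order of the groups from lowest to highest. Only the step between the days exceeded the spread of its neighbours, since the surfaces overlapped on both days. The difference between days was 1.99 ± 0.49 (SE; 95% interval 0.95 to 3.02) on AT-I with an adjusted p of 0.0151 in limma, and it ranked 84th from the highest of 17245 genes. On AT-II it was 1.90 ± 0.53 (0.78 to 3.02) with an adjusted p of 0.0645 in limma and ranked 69th.
Without AT-I day 2 replicate 1, the AT-I difference fell to 1.34 and still passed (adjusted p = 0.0135 in limma). It did not pass when AT-I day 4 replicate 4 was left out (1.79, adjusted p = 0.0580 in limma), in a fit of only the 2 groups compared (1.99, adjusted p = 0.0518) or with the arrays' interquartile range as a covariate (1.70, adjusted p = 0.0836). Over the 27 other settings the adjusted p on AT-I ran from 0.000786 to 0.0836. On AT-II, Ctsk passed in 7 of 27 other settings, with adjusted p in limma from 0.00163 to 0.391. The highest was without AT-II day 2 replicate 1 (1.42). The lowest was without AT-I day 2 replicate 1, which is not in this comparison and left the difference at 1.90. In the fit of only the 2 groups compared, Ctsk passed on AT-II (1.90, adjusted p = 0.0167 in limma).

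Atp6v0d2 encodes the d2 form of a V0 subunit of the proton pump, a form known from osteoclasts and also needed for the fusion of their precursors. On AT-I at day 2 it was at 5.32, 7.18, 8.03 and 7.31. The AT-II day 2 samples had 5.75, 7.58 and 8.38, in the order of replicate 1, the averaged sample and replicate 4. On AT-I at day 4 it was at 9.01, 8.62, 8.61 and 10.32. On AT-II at day 4 it was at 9.02, 9.25, 8.78 and 9.41. The days did not overlap on either surface, replicate 1 was again the lowest of each day 2 group, and AT-I day 4 replicate 4 was the highest of all 15 samples, as it was for Ctsk.
From lowest to highest, the day 2 means were 6.96 ± 1.16 for AT-I (SD, n = 4) and 7.24 ± 1.35 for AT-II (SD, n = 3), followed at day 4 by 9.12 ± 0.28 for AT-II (SD, n = 4) and 9.14 ± 0.81 for AT-I (SD, n = 4), and here too the surfaces overlapped within each day. The difference between days was 2.18 ± 0.57 (95% interval 0.96 to 3.39) on AT-I with an adjusted p of 0.0218 in limma, the 60th highest of all genes. On AT-II it was 1.88 ± 0.62 (0.57 to 3.19) with an adjusted p of 0.141 in limma, the 74th highest. On AT-I it did not pass when day 2 replicate 1 was left out (1.63, adjusted p = 0.0648 in limma), when day 4 replicate 4 was left out (1.79, adjusted p = 0.0832) or with the interquartile range as a covariate (1.79, adjusted p = 0.114), within a range of adjusted p from 0.00900 to 0.114 over 27 settings. With both day 2 samples numbered 1 left out together, a setting chosen after seeing the data, Atp6v0d2 passed on AT-I (1.63, adjusted p = 0.0141 in limma), and so did Ctsk (1.34, adjusted p = 0.000786). On AT-II, leaving out AT-II day 2 replicate 1 gave 1.13 for Atp6v0d2 (adjusted p = 0.631), and it passed in 1 setting, with array weights (1.54, adjusted p = 0.0416). The day change did not differ detectably between the surfaces, by 0.09 ± 0.72 (95% interval -1.44 to 1.61, adjusted p = 0.987 in limma) for Ctsk and 0.30 ± 0.84 (-1.49 to 2.09, adjusted p = 0.969) for Atp6v0d2.

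**Figure D1:**
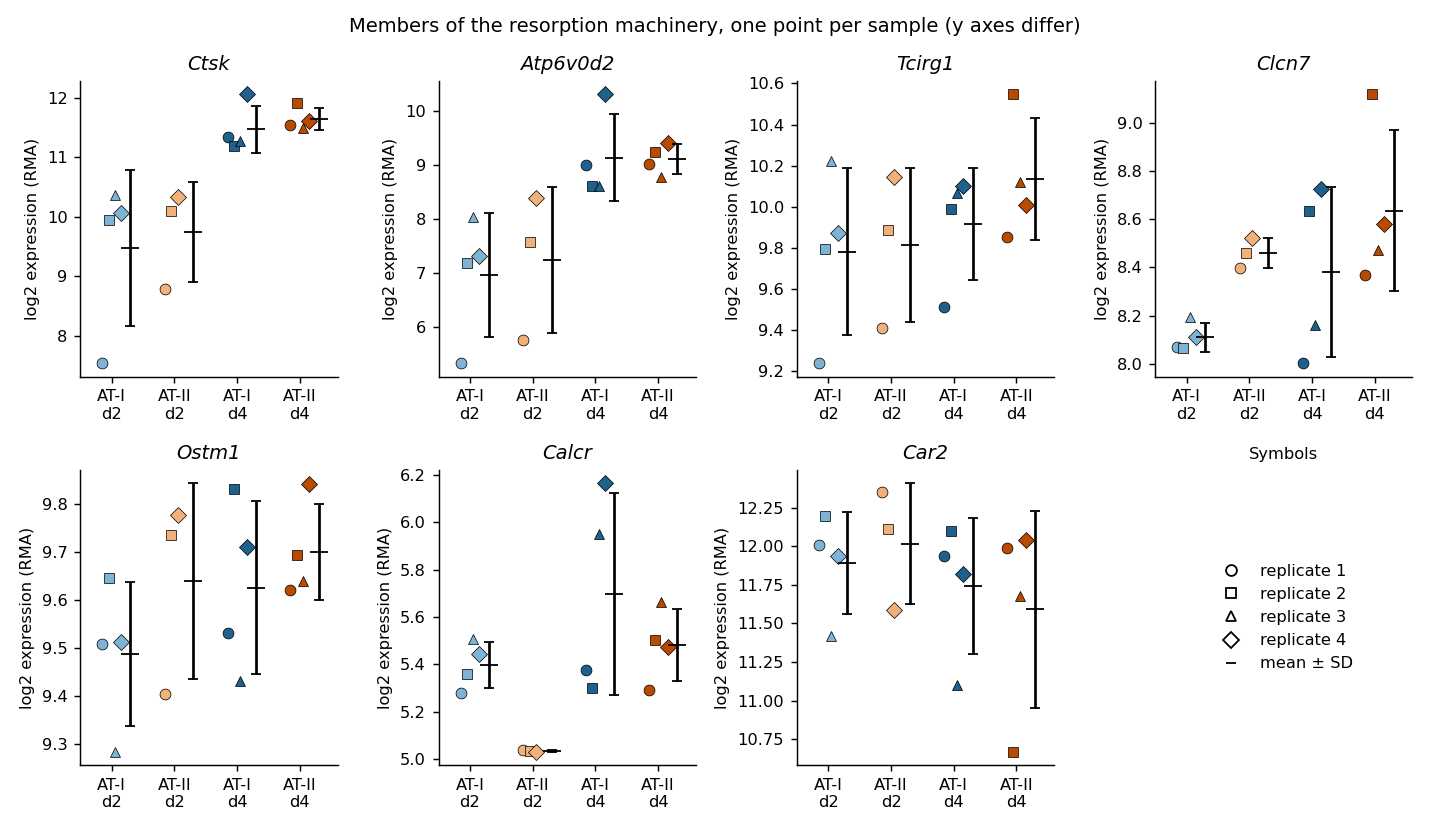
Log2 expression of the 7 measured members in each sample, by surface and day, with 1 symbol per replicate number, bars for the mean ± SD of each group and a y axis of its own for each gene. The sample averaged from AT-II day 2 replicates 2 and 3 is drawn as replicate 2. On each surface the day 4 points of Ctsk (11.19 to 12.06 over both surfaces) and Atp6v0d2 (8.61 to 10.32) all lie above the day 2 points of that surface. The same holds for 11.3% of all genes on AT-I and 8.74% on AT-II. Tcirg1, Ostm1 and Car2 overlap between days on both surfaces.

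Tcirg1 encodes the a3 subunit of the same pump, the form that places it at the ruffled border. It was at 9.24, 9.80, 10.22 and 9.87 on AT-I at day 2. On AT-I at day 4 it was at 9.51, 9.99, 10.06 and 10.10. The AT-II samples had 9.41, 9.89 and 10.14 at day 2 and 9.85, 10.55, 10.12 and 10.01 at day 4. The days overlapped on both surfaces and the lowest sample of each group was replicate 1. The difference between days was 0.14 ± 0.22 (95% interval -0.33 to 0.60, adjusted p = 0.704 in limma) on AT-I and 0.32 ± 0.24 (-0.18 to 0.82, adjusted p = 0.653) on AT-II. On AT-I this interval lies below those of Ctsk (0.95 to 3.02) and Atp6v0d2 (0.96 to 3.39). On AT-II it overlaps those of Ctsk (0.78 to 3.02) and Atp6v0d2 (0.57 to 3.19). Members were not tested against each other.

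Clcn7 encodes the chloride-proton exchanger of lysosomes and the ruffled border, and Ostm1 its partner subunit. Clcn7 was at 8.07, 8.06, 8.20 and 8.11 on AT-I at day 2 and at 8.00, 8.64, 8.16 and 8.72 at day 4. On AT-II it was at 8.40, 8.46 and 8.52 at day 2 and at 8.37, 9.12, 8.47 and 8.58 at day 4. The day 2 samples of each surface lay close together and the day 4 samples spread wider, with AT-II day 4 replicate 2 the highest. The difference between days was 0.27 ± 0.17 (adjusted p = 0.320 in limma) on AT-I and 0.17 ± 0.19 (adjusted p = 0.786) on AT-II. Ostm1 ran from 9.28 to 9.65 on AT-I and from 9.40 to 9.78 on AT-II at day 2. At day 4 it ran from 9.43 to 9.83 and from 9.62 to 9.84, with differences of 0.14 ± 0.13 (adjusted p = 0.483) and 0.06 ± 0.14 (adjusted p = 0.924).

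Car2 encodes carbonic anhydrase II, which supplies the protons of the pump and is also abundant in red cells. It was at 12.01, 12.19, 11.42 and 11.94 on AT-I at day 2 and at 11.94, 12.10, 11.10 and 11.82 at day 4. On AT-II it was at 12.35, 12.11 and 11.58 at day 2 and at 11.99, 10.67, 11.67 and 12.04 at day 4. Replicate 3 was the lowest of both AT-I groups, and AT-II day 4 replicate 2 was the lowest of all samples. The differences between days were -0.15 ± 0.29 (adjusted p = 0.758 in limma) on AT-I and -0.42 ± 0.32 (adjusted p = 0.657) on AT-II. Of the erythroid marker list, 7 of 9 genes were measured and their mean ran from 10.70 to 11.78 on AT-I and 11.05 to 11.87 on AT-II at day 2, and from 10.47 to 11.66 and 10.29 to 11.48 at day 4. Across samples, Car2 followed this mean with Pearson r = 0.983 over the 7 samples of day 2 and r = 0.957 over the 8 samples of day 4 (0.935 and 0.922 without the 2 samples farthest from the median of Car2). These r values are descriptions, since samples of the 2 surfaces share rats and both values of a sample come from the same RNA. The part of red cells in the Car2 level was not tested.

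Calcr encodes the calcitonin receptor, through which calcitonin stops resorption. Its row was dim, at 5.28, 5.36, 5.51 and 5.44 on AT-I at day 2 and at 5.37, 5.30, 5.95 and 6.17 at day 4. On AT-II it was at 5.04, 5.04 and 5.03 at day 2, the middle value being the average of 5.19 and 4.88 on the arrays of the averaged pair, and at 5.29, 5.50, 5.66 and 5.47 at day 4. The days overlapped on AT-I and did not on AT-II, where 8.74% of all genes lay higher at day 4 without overlap, and the 5.19 of the single array still lay below the lowest day 4 sample. The difference between days was 0.30 ± 0.17 (adjusted p = 0.250 in limma) on AT-I and 0.45 ± 0.18 (95% interval 0.07 to 0.83, adjusted p = 0.272) on AT-II. With quantile normalization repeated, Calcr passed on AT-I (0.50, adjusted p = 0.0458).

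**Figure D2:**
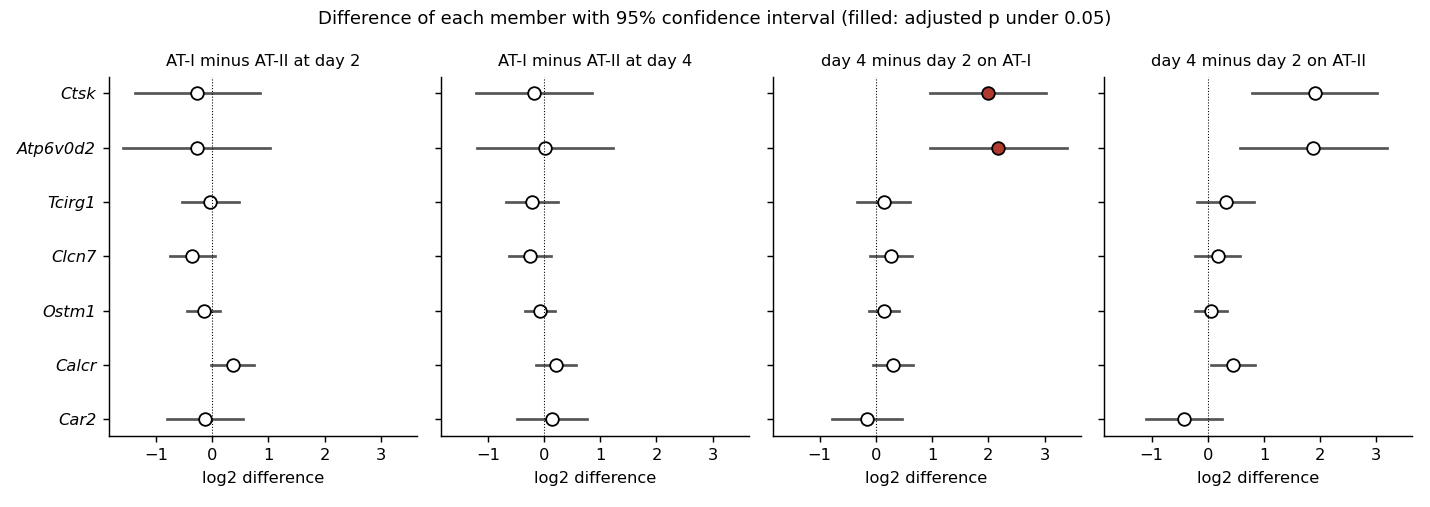
Differences in log2 expression of the 7 measured members, with 95% intervals from limma, for day 4 minus day 2 on each surface and AT-I minus AT-II on each day. The intervals of Ctsk and Atp6v0d2 lie above 0 for the days on both surfaces (Ctsk 0.95 to 3.02 on AT-I and 0.78 to 3.02 on AT-II). The interval of Calcr lies above 0 for the days on AT-II (0.07 to 0.83), and all intervals for the surfaces include 0.

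The surfaces were compared on each day to ask whether the nanoscale features went with a different level of the machinery. No member was called on either day, and in the same fits 0% of all genes were called, with 27.3% of genes at an unadjusted p under 0.05 at day 2 and 3.98% at day 4. The test of the interaction between surface and day likewise called 0% of genes, with 4.1% at an unadjusted p under 0.05. Ctsk differed by -0.26 ± 0.53 at day 2 and -0.17 ± 0.49 at day 4, and Atp6v0d2 by -0.28 ± 0.62 and 0.02 ± 0.57. Tcirg1 differed by -0.03 ± 0.24 and -0.22 ± 0.22, Ostm1 by -0.15 ± 0.14 and -0.07 ± 0.13, and Car2 by -0.12 ± 0.32 and 0.15 ± 0.29. At day 4 the adjusted p of the 7 members in limma ran from 0.913 to 0.998, the groups overlapped for each of them where 2.2% of all genes did not overlap, and the members' median was -0.07 against -0.03 over all genes.
At day 2 the groups did not overlap for 2 members. Clcn7 was lower on AT-I (8.06 to 8.20) than on AT-II (8.40 to 8.52), by -0.35 ± 0.19 (95% interval -0.75 to 0.05, adjusted p = 0.228 in limma), and Calcr was higher on AT-I (5.28 to 5.51) than on AT-II (5.03 to 5.04), by 0.36 ± 0.18 (-0.02 to 0.75, adjusted p = 0.200). Of all genes, 20.2% did not overlap at day 2, 11.4% lying lower and 8.83% higher on AT-I, so 2 of 7 members is a count close to that background. The median of the members was -0.15 at day 2 against -0.09 over all genes, with 6 of 7 negative. With the 16 arrays counted separately 2194 genes were called between the surfaces at day 2, and 0 members were. Array weights gave 3710 genes, and leaving out AT-I day 2 replicate 2 gave 713. With the replicate number as a fixed block 1781 genes were called at day 2, among them 1 member, Atp6v0d2 (-0.63, adjusted p = 0.0452 in limma). It was lower on AT-I in each of the 3 same-numbered comparisons of that fit, while AT-I replicate 3, with 8.03, lay above the 7.68 of the AT-II array of its number.

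Ctsk and Atp6v0d2 also varied together within a day. Their Pearson r was 0.946 over the 7 samples of day 2 and 0.877 over the 8 samples of day 4, and 0.937 and 0.809 without the 2 samples farthest from the median of Ctsk. Ctsk and Tcirg1 had r = 0.939 at day 2 and 0.537 at day 4 (0.103 without the 2 farthest). Leaving out those 2 also narrows the range of Ctsk, so it does not settle what the day 4 relation rested on. The Spearman rank correlation of Ctsk and Tcirg1 over the 8 samples of day 4 was 0.476. These are descriptions with no p, since the samples of a day share rats and differ in the spread of their arrays.

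**Figure D3:**
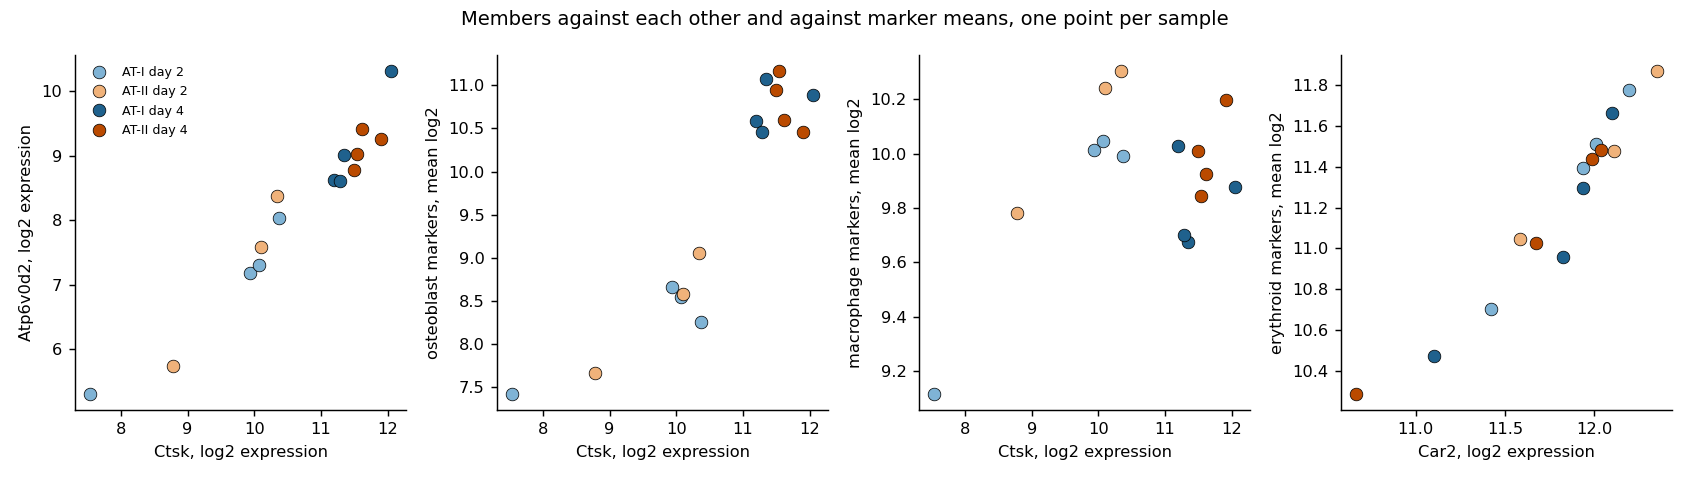
From left to right, log2 expression of Atp6v0d2, of the osteoblast marker mean and of the macrophage marker mean against Ctsk, and of the erythroid marker mean against Car2, with 1 point per sample and colour for the group. On each surface, Ctsk and Atp6v0d2 are higher in every day 4 sample than in every day 2 sample, as are 11.3% of all genes on AT-I and 8.74% on AT-II. The 2 points at the lower left are the day 2 samples numbered 1 (Ctsk 7.54 and 8.78). Car2 lies along a line with the erythroid mean (r = 0.983 at day 2 and 0.957 at day 4).

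The genes whose pattern over the 15 samples was most like that of Ctsk were Col1a1 (Pearson r = 0.977) and Col1a2 (0.975), the chains of type I collagen, Myo1d (0.974), an unconventional myosin, Lum (0.974), which encodes lumican, and Olfml3 (0.972). Without AT-I day 2 replicate 1 these 5 had r from 0.949 to 0.969. For Atp6v0d2 they were Slc25a36 (0.968), a mitochondrial carrier, Myo1d (0.968), Prss35 (0.961), Slc30a4 (0.961), a zinc transporter, and Colec12 (0.959), a scavenger receptor, and without that sample these 5 had r from 0.940 to 0.951. The samples form a day 2 and a day 4 cluster, so each r over both days includes the step between them.
Marker counts below stand beside 8.84% of all genes called higher and 2.66% lower on AT-I, and 3.13% and 0.203% on AT-II. Osteoblast markers moved with the day in the same samples. All 9 markers rose on AT-I and 8 of 9 on AT-II, with medians of 2.11 and 1.91, among them Phex (4.24 ± 0.39 and 3.85 ± 0.42), Dmp1 (3.46 ± 0.36 and 3.53 ± 0.39), Sp7 (2.01 ± 0.25 and 1.84 ± 0.27) and Runx2 (1.27 ± 0.17 and 1.34 ± 0.18). Without 1 sample the count on AT-II ran from 4, without AT-II day 2 replicate 1, to 9. The mean of the 9 markers ran from 7.43 to 8.66 on AT-I and 7.67 to 9.05 on AT-II at day 2, and from 10.46 to 11.07 and 10.46 to 11.17 at day 4, with AT-I day 2 replicate 1 the lowest. Their part in the higher Ctsk was not tested. Within a day, Ctsk and the osteoblast mean had r = 0.884 at day 2, which was 0.0109 without the 2 samples farthest from the median of Ctsk, and r = 0.0205 at day 4.
Macrophage markers, of which 8 of 10 were measured, had a mean of 9.12 to 10.05 on AT-I and 9.78 to 10.30 on AT-II at day 2, and of 9.67 to 10.03 and 9.84 to 10.20 at day 4. None of the 8 was called between days on either surface, and their medians were 0.03 on AT-I and -0.05 on AT-II. Within a day, Ctsk and the macrophage mean had r = 0.943 at day 2 and 0.396 at day 4. Without the 2 samples farthest from the median of Ctsk, r was 0.276 and 0.157.
Of the 9 neutrophil markers 8 had a lower mean at day 4 on each surface, with medians of -0.42 and -0.36, and 1 passed, Csf3r, the receptor of the growth factor G-CSF. It fell by 0.92 on AT-I (SE 0.21, adjusted p = 0.00907 in limma) and differed by -0.68 ± 0.22 on AT-II (adjusted p = 0.143). The mean of the 9 ran from 10.53 to 11.13 on AT-I and 10.50 to 11.14 on AT-II at day 2, and from 10.12 to 10.86 and 10.28 to 10.59 at day 4. Within a day, Ctsk and this mean had r = -0.587 at day 2 and -0.709 at day 4 (-0.982 and -0.462 without the 2 samples farthest from the median of Ctsk). The 7 erythroid markers were all negative on both surfaces, with medians of -0.28 and -0.40 and 0 called. The part of these cells in the differences of Ctsk, Spi1 and Mmp9 was not tested. Of 4 measured chondrocyte markers 1 rose on each surface, Acan, which encodes aggrecan, by 1.27 ± 0.31 (adjusted p = 0.0146 in limma) and 1.29 ± 0.33 (adjusted p = 0.0450).
The osteoclast marker list, which holds Ctsk and Atp6v0d2, had 6 of 9 genes measured, 2 called on AT-I and 0 on AT-II, with medians of 0.60 and 0.56. Of the markers outside the members, named here after their values were seen, Mmp9, a matrix metalloproteinase that neutrophils also make, differed by 0.47 ± 0.17 (adjusted p = 0.0869 in limma) and 0.49 ± 0.18 (adjusted p = 0.223). Ocstamp, a fusion protein, differed by 0.73 ± 0.34 (adjusted p = 0.176) and 0.63 ± 0.37 (adjusted p = 0.526). Oscar, a costimulatory receptor, pointed the other way with -0.74 ± 0.36 (adjusted p = 0.190) and -0.42 ± 0.39 (adjusted p = 0.731). Of the 6 measured osteoclast markers, Ctsk and Atp6v0d2 were the 2 called between days on AT-I.

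The other genes of the pathway were counted from lists by role. Over all genes, 8.84% were called higher and 2.66% lower on AT-I, and 3.13% and 0.203% on AT-II. No list count given from here on was tested against these shares. Of 29 measured genes of osteoclast signalling and fusion, 2 rose and 2 fell on AT-I and 1 rose on AT-II, with medians of 0.00 and -0.04. Tnfrsf11b, which encodes osteoprotegerin, the decoy receptor that withholds RANKL, ran from 6.55 to 7.86 at day 2 and from 8.29 to 8.65 at day 4 on AT-I. It rose by 1.50 ± 0.24 (adjusted p = 0.000876 in limma) there and by 1.22 ± 0.26 (adjusted p = 0.0157) on AT-II, where it did not pass when day 2 replicate 1 (1.07, adjusted p = 0.120), the averaged sample (1.22, adjusted p = 0.0680) or day 4 replicate 3 (1.15, adjusted p = 0.0539) was left out. Cd9, a tetraspanin, rose by 0.55 ± 0.16 on AT-I (adjusted p = 0.0381) and lost its call in 12 of 27 other settings, among them without AT-I day 2 replicate 1 (0.38, adjusted p = 0.101).
Sbno2, a transcriptional coregulator involved in osteoclast fusion, fell by 0.56 on AT-I (SE 0.11, adjusted p = 0.00509 in limma) and differed by -0.38 ± 0.12 on AT-II (adjusted p = 0.136). Spi1, which encodes the myeloid transcription factor PU.1, fell by 0.53 on AT-I (SE 0.14, adjusted p = 0.0189) and differed by -0.44 ± 0.15 on AT-II (adjusted p = 0.151). Spi1 did not pass when AT-I day 4 replicate 1 was left out (-0.47, adjusted p = 0.0640) and in a fit of only the 2 groups compared. The RANKL gene Tnfsf11 and the RANK gene Tnfrsf11a, named for their role after their values were seen, as are Atp6v0d1, Ctsb, Ctsl and Ctss in what follows, differed by 0.30 ± 0.19 and 0.29 ± 0.29 on AT-I and by 0.21 ± 0.21 and 0.10 ± 0.32 on AT-II. None of these 4 differences passed.

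Of 20 other subunits of the V-ATPase, 1 rose on each surface, with medians of -0.06 and -0.04. This was Atp6v0e2, a small V0 subunit, which ran from 6.87 to 7.31 at day 2 and from 7.84 to 8.00 at day 4 on AT-I. It rose by 0.84 ± 0.15 (adjusted p = 0.00212 in limma) on AT-I and by 0.98 ± 0.16 (adjusted p = 0.00271) on AT-II, and passed in all 27 other settings on each surface. Atp6v0d1, the widely expressed d1 form that pairs with the member Atp6v0d2 by role, differed by -0.08 ± 0.11 on AT-I and -0.10 ± 0.12 on AT-II.
Among 18 measured genes of attachment, trafficking and other resorption roles, 2 rose on AT-I and 1 on AT-II. Mmp14, a membrane-bound collagenase also made by stromal cells, rose by 1.33 ± 0.24 (adjusted p = 0.00221 in limma) and by 1.28 ± 0.26 (adjusted p = 0.0116), the latter not without AT-II day 2 replicate 1 (1.02, adjusted p = 0.101). Cst3, which encodes the cathepsin inhibitor cystatin C, rose by 0.66 ± 0.18 on AT-I (adjusted p = 0.0249) and lost its call in 7 of 27 other settings, among them without AT-I day 2 replicate 1 (0.47, adjusted p = 0.0611), without AT-I day 4 replicate 2 and without AT-I day 4 replicate 4.
Of 10 other cathepsins, 0 were called on either surface, with medians of 0.01 and 0.02, and Ctsb, Ctsl and Ctss, which act in the lysosomes of many cells, differed by -0.02 ± 0.10, 0.18 ± 0.20 and 0.14 ± 0.22 on AT-I. Of 13 other carbonic anhydrases, 1 fell on AT-I, Car7 by 0.45 (SE 0.14, adjusted p = 0.0448), which lost its call in 19 of 26 other settings, among them without AT-I day 2 replicate 1 (-0.49, adjusted p = 0.0595). Of 6 other CLC family members and 5 other acid phosphatases, 0 were called on either surface.

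**Figure D4:**
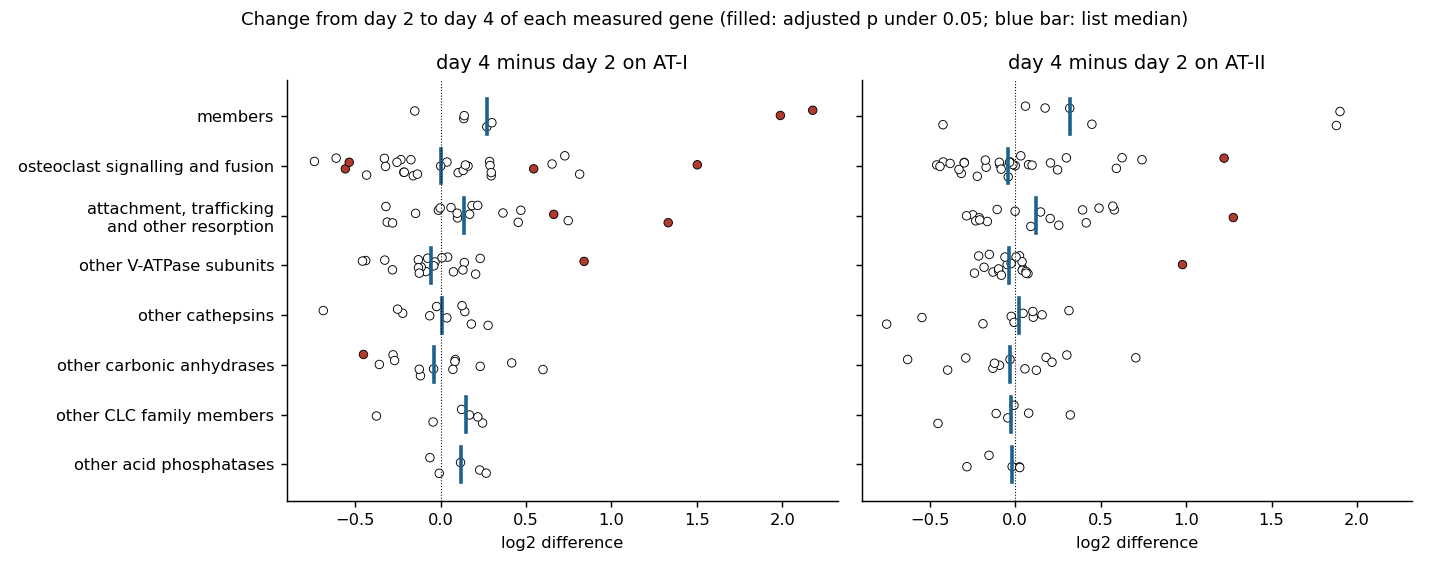
Differences in log2 expression between day 4 and day 2 for the members and the genes of each pathway list, on AT-I and AT-II, with 1 point per gene, filled where called, and a bar at the list median. Ctsk and Atp6v0d2 lie farthest right on both surfaces, and the medians of the other V-ATPase subunits (-0.06 and -0.04) and other cathepsins (0.01 and 0.02) lie near 0.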

How the data were processed

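The 16 arrays were of the type Affymetrix Rat Gene 1.1 ST and carried RNA of implant-adherent cells (per the labels). The values were deposited as normalised log2 expression. Per the submitters' processing notes, the authors used RMA and Affymetrix Expression Console, and that RMA gives logarithms to base 2 is the only ground for reading them so. Tool versions, filters and the genome build were not given in the sources used here.

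Rows were named by the platform annotation. Of 29214 rows, 18644 named 1 gene, 962 several and 9608 none, and 18460 of the identifiers were in the GRCr8 table, with 0 symbols changed. For 879 genes with more than 1 row the brightest was used, and 17245 genes were tested. Values ran from 1.82 to 14.0, and the number of arrays limits the precision.

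limma 3.58.1 in R 4.3.3 (lmFit on group means, eBayes, two-sided, no covariate) was fitted once to all 4 groups, with 15 samples after the closest pair of AT-II day 2 arrays was averaged. It had 11 residual and 4.44 prior degrees of freedom. It was also run on simulated data with independent noise, which held no shared rats and no differing array spreads, so that run does not bear on either. Confidence intervals are 95% intervals from this fit. Beside it, 28 settings were run, of which 15 left out 1 sample, 12 were planned otherwise and 1 was added after the data were seen. Not every setting gives a value for every comparison.

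The members and lists were chosen with earlier results of these data known, and so were the tests. By rule, the named genes were all members, up to 4 passing genes per list and comparison of days with the smallest p, and the 5 genes most like each passing member by Pearson r. Mmp9, Ocstamp, Oscar, Tnfsf11, Tnfrsf11a, Atp6v0d1, Ctsb, Ctsl and Ctss lie outside this rule and were chosen after their values were seen. Python 3.11.15, numpy 2.4.6, pandas 2.3.3 and matplotlib 3.10.9 were used for tables and figures. Promoter windows are RefSeq sequences of GRCr8.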

Additional observations from a re-analysis of the deposited data

Results flagged for a closer look

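In groups of 4 samples, a sample is listed here when its gap to the nearest of the others was above Dixon's 95% critical value for the range. Over 147 groups of members, named genes and list means, 11 were listed. A share of 1 in 20 would be 7.35 for independent groups. These groups are not independent, since they share samples and some genes were chosen for likeness to a member, so the counts cannot be compared. Among the 21 groups of members 1 was listed, Ctsk in AT-I day 2 replicate 1 at 7.54, where the other samples lay between 9.94 and 10.37. The same sample was the low one in 6 of the other cases. Among these, Col1a1, Olfml3 and Prss35 were chosen for following Ctsk or Atp6v0d2 over these samples, so they are not separate evidence about this sample. The macrophage marker mean was 9.12 there, against 9.99 to 10.05, and Cd9 was 9.59, against 10.22 to 10.31. Col1a1 was 10.29, against 11.89 to 12.04, and Sp7 was 5.74, against 6.70 to 6.73. Olfml3 was 7.19, against 9.06 to 9.19, and Prss35 was 5.01, against 6.75 to 7.10.

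The remaining cases were spread over other samples. Spi1 was 9.70 in AT-I day 2 replicate 2, against 9.51 to 9.53. The neutrophil marker mean was 10.53 in AT-I day 2 replicate 3, against 11.06 to 11.13. Sbno2 was 8.40 in AT-II day 4 replicate 2, against 7.97 to 8.03, and the mean of the other carbonic anhydrases was 6.80 in AT-I day 4 replicate 4, against 6.89 to 6.90. AT-II day 2, with 3 samples, was not examined in this way.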

How the results depend on the processing

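The rises of Ctsk and Atp6v0d2 from day 2 to day 4 on AT-I kept their direction in all 27 other settings and passed in 24 of 27 each, with differences of 1.34 to 2.29 and 1.63 to 2.53. The number of members called on AT-I was 1 in a fit of only the 2 groups compared and 0 with the interquartile range of each array as a covariate, 3 with quantile normalization repeated, which added Calcr, and 0 to 2 when 1 sample was left out. On AT-II it was 1 with all 16 arrays counted separately, with the random replicate block over the 16 arrays, with quantile normalization repeated, with only the 2 groups compared and with both day 2 samples numbered 1 left out together, 2 with array weights, and 0 to 1 when 1 sample was left out. The cause was not tested.

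Same-numbered samples of the surfaces did not deviate together throughout, with correlations of 0.642, 0.505, -0.258 and 0.152 at day 2 and 0.130, -0.339, 0.468 and 0.201 at day 4, and not every sample correlated best with its own number, so the numbers were not taken as pairs. The 0.505 and the -0.258 both belong to arrays of the averaged pair, and the same-numbered day 2 values other than -0.258 were positive. At day 2, AT-I replicate 2 correlated best with AT-II replicate 3 (0.533), and AT-I replicate 3 with AT-II replicate 4 (0.556). With the number as a fixed replicate block, 1 member was called between the surfaces at day 2 (Atp6v0d2, -0.63, adjusted p = 0.0452 in limma), and 1781 of all genes were called there, against 0 without the block, 93 with the number as a random block, 2194 with 16 arrays counted separately, 4701 with both of these, 3710 with array weights, 1 with quantile normalization repeated and 713 without AT-I day 2 replicate 2. With the fixed block Car2 changed sign to 0.032.

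Other uncalled differences changed sign. With each array centred on its median, which moved the median day change of all genes on AT-I from -0.05 to -0.21, the day 2 surface difference was 0.013 for Car2 and 0.11 for Tcirg1, the day 4 one 0.012 for Ostm1, and the day change -0.020 for Ostm1 and -0.023 for Tcirg1 on AT-I and -0.047 for Ostm1 on AT-II. With quantile normalization the day 2 difference was 0.043 for Ostm1 and 0.13 for Tcirg1, and the interaction of Ctsk -0.053. With the interquartile range as a covariate the day 2 difference was 0.30 for Atp6v0d2, 0.51 for Car2, 0.17 for Ctsk and 0.14 for Ostm1, the day 4 one 0.00326 for Ctsk and 0.044 for Ostm1, the day change of Ostm1 on AT-I -0.054, and the interaction -0.043 for Atp6v0d2 and -0.17 for Ctsk. With array weights the day change of Tcirg1 on AT-I was -0.013. With both samples numbered 1 left out, Car2 had 0.00397 at day 2, Tcirg1 -0.045 between days on AT-I, Ostm1 -0.057 on AT-II and the Ctsk interaction -0.080. With 1 sample left out, the day 2 difference ran from -0.74 to 0.39 for Ctsk, -1.02 to 0.30 for Atp6v0d2, -0.23 to 0.15 for Tcirg1 and -0.34 to 0.044 for Car2, the day 4 one from -0.37 to 0.20 for Atp6v0d2 and -0.16 to 0.36 for Car2, the day change from -0.045 to 0.28 for Tcirg1 and -0.31 to 0.062 for Car2 on AT-I and -0.057 to 0.13 for Ostm1 on AT-II, and the interaction from -0.56 to 0.57 for Ctsk and -0.27 to 1.04 for Atp6v0d2.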
